A study of Mus musculus with 96 samples.

Results

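The cells described here were the 24 of 96 sister cells of cultured horizontal basal cells (HBCs) with the highest score for olfactory xenobiotic enzymes, set against the other 72 cells. HBCs are the reserve stem cells of the olfactory epithelium (OE), and the 96 cells were the daughters of 48 divisions, each pair coming from 1 mother cell. All cells were wild type, came from the OE of adult mice of 6 to 8 weeks taken 2 days after a methimazole injection, and were cultured on extracellular matrix before each cell was picked and sequenced as its own library by G&T-seq, with ERCC RNA added. Methimazole is a drug that destroys most of the OE and spares its HBCs. No untreated or uncultured cell is among the 96, the labels name no mouse or culture for any cell, and the cells were therefore taken as 1 sample without replicates. Cell 4-2 (daughter 2 of pair 4) stands apart from the rest, and results that rest on it are given with and without it. Values are given per cell and groups are described without tests or p-values.

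The score was the mean of log2(CPM + 1) over Cyp2a5, Cyp2f2, Ugt2a1, Fmo2 and Papss2, where CPM is the count of a gene divided by the cell's counts on all mouse genes and multiplied by 1000000. The members were chosen by these values, so the levels of the 5 genes in the 24 cells are a description of the choice. The OE clears inhaled chemicals in steps. Cytochrome P450 and flavin-containing monooxygenases first oxidize a compound, transferases then join it to glucuronic acid, sulfate or glutathione, and carriers export the product. In the intact epithelium these enzymes are abundant in sustentacular cells, the supporting cells of the sensory neurons, and in the ducts and acini of Bowman's glands, both of which can be formed anew by HBCs and their progeny after injury. Methimazole is itself turned into its toxic form by such oxidases.

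Cyp2a5 (ENSMUSG00000005547, chromosome 7 of GRCm38 from 26835305 to 26843548) and Cyp2f2 (ENSMUSG00000052974, chromosome 7 from 27119909 to 27133660) encode P450 enzymes and lie in the same cluster of P450 genes. Ugt2a1 (ENSMUSG00000106677, chromosome 5 from 87459490 to 87490871) encodes an olfactory UDP-glucuronosyltransferase, Fmo2 (ENSMUSG00000040170, chromosome 1 from 162874317 to 162898726) a flavin-containing monooxygenase, and Papss2 (ENSMUSG00000024899, chromosome 19 from 32595790 to 32667187) the enzyme that makes the activated sulfate used in sulfation. The 250 bases before the RefSeq start sites of Cyp2a5, Cyp2f2 and Ugt2a1 (GRCm38.p6) are shown because these genes set the upper end of the score. Capitals mark the TATA box motif TATAAA found on the strand of the gene.
Cyp2a5, chr7:26835089-26835338, plus strand: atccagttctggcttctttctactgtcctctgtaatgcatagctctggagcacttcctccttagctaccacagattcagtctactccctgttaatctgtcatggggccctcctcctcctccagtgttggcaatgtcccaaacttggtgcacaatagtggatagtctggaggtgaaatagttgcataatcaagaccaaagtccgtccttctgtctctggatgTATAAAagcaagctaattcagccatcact
Cyp2f2, chr7:27119705-27119954, plus strand: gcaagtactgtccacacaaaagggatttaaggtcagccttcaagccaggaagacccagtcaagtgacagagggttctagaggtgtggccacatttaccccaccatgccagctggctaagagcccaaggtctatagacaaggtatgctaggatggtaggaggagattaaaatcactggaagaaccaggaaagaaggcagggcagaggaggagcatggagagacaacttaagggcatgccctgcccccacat
Ugt2a1, chr5:87490872-87491121, minus strand: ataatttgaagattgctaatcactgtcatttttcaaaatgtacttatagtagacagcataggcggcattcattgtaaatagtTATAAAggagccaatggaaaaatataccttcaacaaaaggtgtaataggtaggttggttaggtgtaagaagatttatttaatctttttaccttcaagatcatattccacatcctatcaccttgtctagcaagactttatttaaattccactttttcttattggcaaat
In Cyp2a5 the TATA motif ran from 29 to 24 bases before the start, the usual distance of a TATA box. The single match of Ugt2a1 lay from 168 to 163 bases before the start, and the Cyp2f2 window held none. The motif was present on either strand in 12.4% of 32851 mouse promoter windows of the same length. Neither the antioxidant response element core TGACNNNGC (10.2% of windows), the aryl hydrocarbon receptor core GCGTG (28.2%), the AP-1 site TGANTCA (6.75%) nor the full palindromic nuclear factor I site (0.0365%) was found on either strand of the 3 windows. The last 34 bases of the Cyp2a5 window and the last 46 of the Cyp2f2 window lie inside the gene as the deposited tables place it.

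Scores of the 24 cells ran from 1.39 to 10.6 with a median of 2.38, and those of the other 72 from 0 to 1.33 with a median of 0.256. Cell 4-2 stood far above the rest with 10.6. Next came cells 38-2 with 4.64, 29-1 with 3.77, 39-2 with 3.09 and 19-1 with 3.03. There was no gap at the edge of the group. Cells 39-1 and 28-1 were the last inside it with 1.39 each, and cells 36-1 with 1.33, 24-2 with 1.32 and 48-2 with 1.30 were the first outside.

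**Figure D1:**
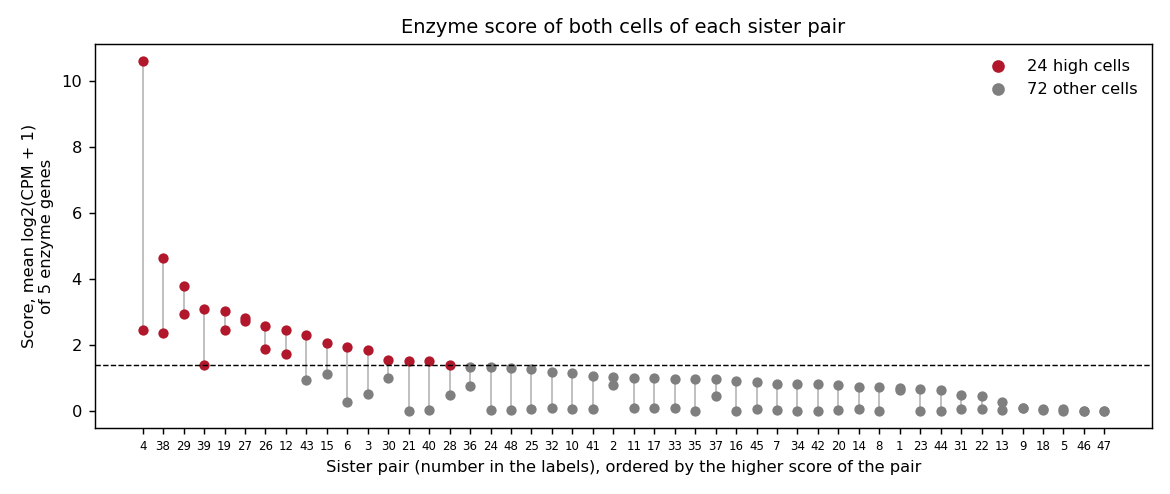
Score (mean log2(CPM + 1) of 5 enzyme genes) of both cells of each of the 48 sister pairs, joined by a line and ordered by the higher score; the dashed line marks the lowest score among the 24 high cells. Cell 4-2 lies at 10.6, its sister at 2.45, and no gap separates the last high cell (1.39) from the next cell (1.33).

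Most high cells held 2 of the 5 enzymes rather than the set. At a level of 5 CPM or more, 15 of the 24 cells had 2 of the genes, 4 had 1, 2 had 3, 1 had 4 and 2 had all 5. Cells 4-2 and 38-2 were the ones with all 5. The commonest combinations were Cyp2f2 with Papss2, Cyp2f2 with Ugt2a1, and Ugt2a1 with Papss2, each in 4 cells. Of the other 72 cells, 22 had 1 gene at this level and 50 had none. The level of 5 CPM was chosen after the values were seen. The name given to these cells, high in olfactory xenobiotic enzymes, thus described cell 4-2, while the other 23 cells had low to moderate levels of some of the enzymes.

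Cyp2f2, a P450 of the airways, was found in most high cells. It ran there from 0 to 1279 CPM with a median of 33.4, and 19 of 24 cells had 10 or more reads of it. The other cells ran from 0 to 73.0 CPM with a median of 0, and 21 of 72 had 10 or more reads. After cell 4-2, the highest cells were 26-1 with 243 CPM, 29-1 with 208 and 38-2 with 168. The groups overlapped, since 5 high cells (6-2, 12-1, 28-1, 30-2 and 39-1) had 0 to 0.12 CPM, among them 4 without a read, and cells 12-2 and 40-2 had 11 reads each.

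Ugt2a1 ran from 0 to 4509 CPM in the high cells with a median of 19.6, and from 0 to 26.4 CPM in the others with a median of 0.0309. Its second highest value was 156 CPM in cell 39-2, followed by 131 in cell 29-2, 110 in cell 39-1 and 93.4 in cell 19-1. Cells 26-1, 26-2 and 27-2, with 243, 93.6 and 47.7 CPM of Cyp2f2, had no read of Ugt2a1, so the oxidizing and the conjugating enzyme were not always found in the same cells.

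Papss2 ran from 0 to 1176 CPM in the high cells with a median of 5.85. Cells 27-2 with 58.1 CPM and 15-1 with 50.8 followed cell 4-2. In the other cells it reached 48.8 CPM, with a median of 0. At 5 CPM or more it was found in 13 high and 10 other cells, the largest number of other cells for any of the 5 genes.

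Fmo2 was rare. It ran from 0 to 193 CPM in the high cells with a median of 0, and was at or above 5 CPM in cells 4-2, 39-2 (34.2 CPM), 26-1 (30.1), 6-2 (21.3), 38-2 (11.1) and 26-2 (5.63). Its highest value outside the group was 1.51 CPM.

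Cyp2a5 was abundant in cell 4-2, which held 259709 reads of it, equal to 6730 CPM. Cells 38-2 with 546 reads (15.2 CPM) and 29-1 with 536 reads (16.2 CPM) were the other cells above 5 CPM. The high cells had a median of 0, and the other 72 cells reached 2.35 CPM at most.

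The low counts of Cyp2a5 followed the names of the deposited tables of single cells, which give each cell 1 of 12 sets and 1 of 8 positions. The labels do not say what a set or position was, and both run in the order of the pair numbers. Cell 4-2 was position 8 of set 1. All 18 other cells that shared its set or its position had Cyp2a5 reads, between 43 and 90, or 0.0166% to 0.0347% of the reads in cell 4-2. Of the remaining 77 cells, 2 had any, and these were cells 38-2 and 29-1. Sprr2f, with 135168 reads in cell 4-2, showed the same layout, with reads in 18 of the 18 cells and in 4 of the 77, at most 10 reads. Per the study's methods the libraries were dual-indexed and sequenced together in 1 lane. Whether reads moved between libraries was not tested. For Ugt2a1, 18 of the 18 cells and 38 of the 77 had reads, and for Cyp2f2 16 and 36. Among the 18 were 4 high cells, 4-1, 3-2, 12-2 and 40-2. When counts of a gene at or under 0.05% of its sum in the same set or position were set to 0 and the cells ranked again, 23 of the 24 cells remained high, and cell 36-1 took the place of cell 40-2. Sister cells always shared a set.

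**Figure D2:**
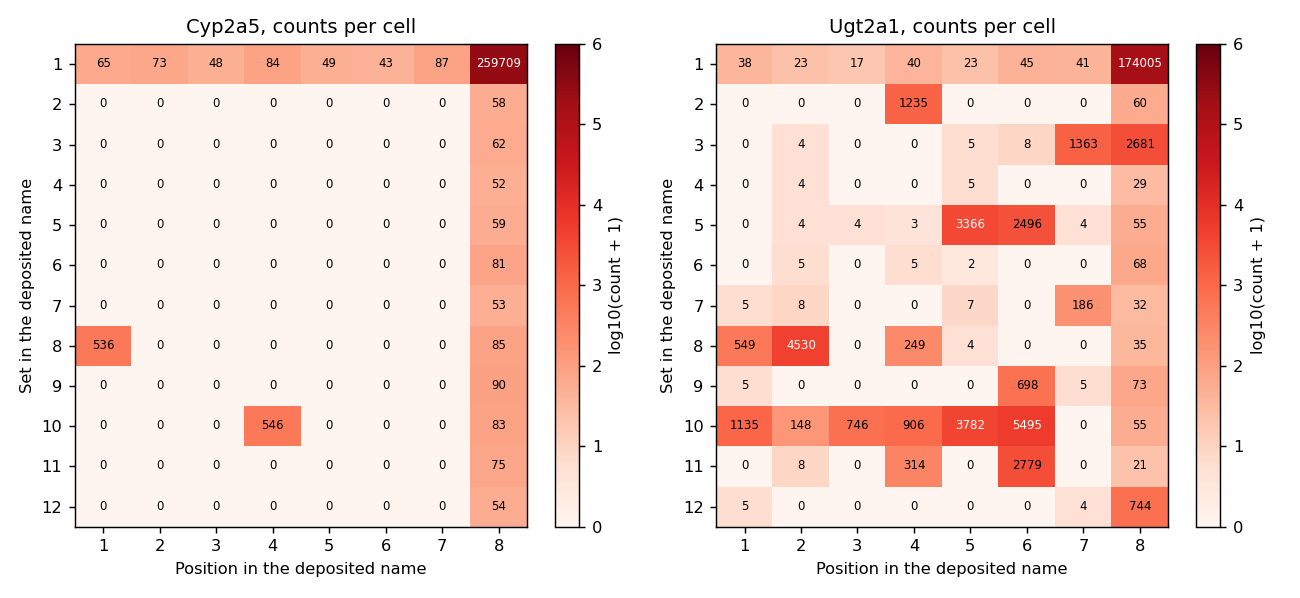
Counts of Cyp2a5 (left) and Ugt2a1 (right) in each of the 96 cells, arranged by the set (rows) and position (columns) in the deposited names; colour is log10(count + 1) and the numbers are counts. The 43 to 90 Cyp2a5 reads line up along set 1 and position 8, where cell 4-2 has 259709, whereas Ugt2a1 also has counts of up to 5495 elsewhere.

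Near copies limit what can be said of 2 of the genes. Cyp2a4 (ENSMUSG00000074254), a P450 gene whose transcript is 98.3% identical over its length to that of Cyp2a5 in the GENCODE M21 annotation, was counted in cell 4-2 alone, with 953 reads. Ugt2a2 (ENSMUSG00000029268) shares 1771 exon bases with Ugt2a1, which is 68.9% of the exon bases of Ugt2a1, so reads on the shared exons cannot be assigned to either with certainty. It was counted in 19 cells, with most in cell 29-1 at 2657 reads (80.5 CPM), where Ugt2a1 itself stood at 16.6 CPM.

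**Figure D3:**
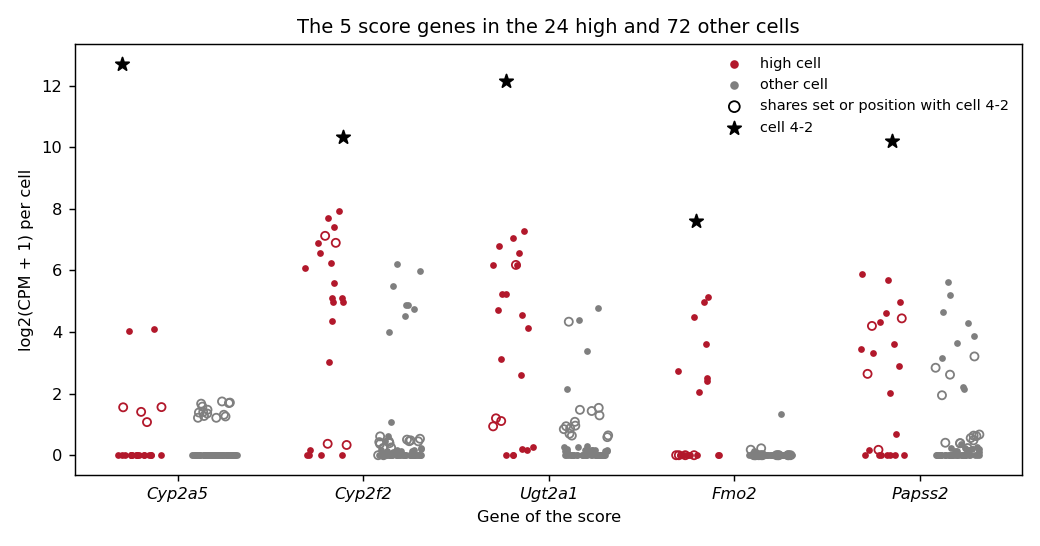
log2(CPM + 1) of the 5 score genes in each cell, in the 24 high (red) and 72 other cells (grey); open circles are the 18 cells that share a set or position with cell 4-2, and the star is cell 4-2. Cyp2f2 and Ugt2a1 spread over most high cells, whereas Cyp2a5 beyond the star consists of 2 cells at 15.2 and 16.2 CPM and the band of open circles.

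The 5 genes were only weakly ordered together over the 96 cells. Spearman's rho between them ran from 0.0332 for Fmo2 and Papss2 to 0.487 for Cyp2a5 and Ugt2a1. Without cell 4-2 and the 18 cells that shared its set or position, the highest value over the 77 cells was 0.307, for Cyp2f2 and Fmo2, and that of Cyp2a5 and Ugt2a1 was 0.216. These points share library and depth and are given as a description. When the score was built from the other 4 genes, 19 of the 24 cells stayed in the group without Cyp2f2 or without Ugt2a1, 20 without Papss2, 22 without Fmo2 and 23 without Cyp2a5. Cyp2f2 then still differed by 1.98 on the log2 scale between the 24 highest cells and the rest, Ugt2a1 by 2.09, Fmo2 by 1.07, Papss2 by 0.905 and Cyp2a5 by 0.733. Without cell 4-2 these differences were 1.67, 1.68, 0.789, 0.543 and 0.225.

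Sister cells often fell in the group together. In 8 of the 48 pairs both cells were high (pairs 4, 12, 19, 26, 27, 29, 38 and 39), in 8 pairs 1 cell was high, and in 32 neither was. Of the 24 high cells, 16 thus had a high sister, a share of 66.7% (exact Clopper-Pearson 95% interval 44.7% to 84.4%, which covers counting error only and takes the cells as independent), while 25.0% of all cells were high. The score of the 2 sisters had a Spearman's rho of 0.348 over 48 pairs and 0.308 without pair 4. By gene it was 0.556 for Cyp2f2, 0.450 for Fmo2, 0.350 for Cyp2a5, 0.335 for Ugt2a1 and 0.0408 for Papss2. The value of Cyp2a5 includes its low counts along set 1, which sisters share because they lie in the same set. At 5 CPM or more, Cyp2a5 was found in 1 sister of 3 pairs and in both sisters of none. High cells were found in 10 of the 12 sets, with 5 each in sets 7 and 10 and none in sets 9 and 12.

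Within the 8 pairs of 2 high cells, the sisters held the same set of enzymes at 5 CPM or more in pairs 12, 26 and 27, with 2 genes each. Pairs 4 and 38 shared 2 of the 5 genes found in either sister, pair 29 shared 2 of 4, pair 19 shared 2 of 3 and pair 39 shared 1 of 3. The cells were chosen by these same values. Pair 26 had Cyp2f2 and Fmo2 in both cells, pair 27 Cyp2f2 and Papss2, pair 12 Ugt2a1 and Papss2, and pairs 19, 29 and 38 Cyp2f2 and Ugt2a1. Over all pairs, Cyp2f2 reached 5 CPM in both sisters of 8 pairs and in 1 sister of 9. Papss2 did so in both sisters of 3 pairs and in 1 sister of 17.

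Pair 4 was the exception in size. Cell 4-2 had 6730 CPM of Cyp2a5, 4509 of Ugt2a1, 1279 of Cyp2f2, 1176 of Papss2 and 193 of Fmo2. Its sister 4-1 had 1.94, 0.914, 138, 5.24 and 0 CPM of the same genes. Cell 4-2 also held the highest levels of Por, the reductase that feeds electrons to P450 enzymes, with 3095 CPM against 619 at most in any other cell, of Ephx1, the microsomal epoxide hydrolase, with 2421 CPM against 1397, and of Akr1b3, an aldose reductase, with 22925 CPM against 6858. Aqp5, a water channel of secretory epithelia, stood at 8461 CPM and was second highest in its sister with 5233 CPM. Sftpd, a collectin secreted onto airway surfaces, was at 846 CPM against 111 at most elsewhere. The basal keratins were at the other end. Krt14 was at 17.9 CPM, the lowest of the 96 cells, where the others had 103 to 8634, and Krt5 at 175 CPM and Krt17 at 19.9 CPM were also the lowest. Trp63, the transcription factor that holds HBCs in the basal state, was at 36.4 CPM and ranked 92nd of 96. In total 90 genes were at 50 CPM or more in cell 4-2 and at least 2-fold above every other cell, while the next cell, 29-1, had 54 such genes.

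Most defining markers of other cell types were at 0 in cell 4-2, while it had the highest summed level of some wider marker lists. Of 24 defining markers of sustentacular, Bowman's gland, airway secretory, ciliated, ionocyte, neuronal and non-epithelial cells, 23 were at 0 in it and the remaining one, Pecam1, at 0.0259 CPM. The zeros included Cyp2g1, Cyp1a2, Sec14l3 and Ermn of sustentacular cells, Sox10, Gpx6, Muc5b and Obp2a of Bowman's glands, and Scgb1a1 of airway secretory cells. Such zeros were not particular to cell 4-2. Of the 24 markers, 12 were at 0 in all 96 cells, among them each of the genes just named except Cyp2g1. Over the whole lists, cell 4-2 had the highest sum of all 96 cells for Bowman's gland markers with 8490 CPM, of which Aqp5 was 8461, for airway secretory markers with 3771 CPM, of which Lypd2 was 3604, and for immune, stromal, endothelial and blood markers with 287 CPM, nearly all of it Cd68, a lysosomal protein abundant in macrophages. Among the 24 high cells together 17 of the 24 markers were at 0, and the highest value of any was 11.1 CPM, that of Cyp2g1 in cell 26-2, the one cell of all 96 with reads of that sustentacular P450. Of the HBC markers, Trp63 and Krt5 stayed present in the high cells, while the wider list of basal markers, described below, had a median difference below 0. Trp63 ran from 36.4 to 578 CPM in the high cells with a median of 182, and had a median of 182 in the others, and Krt5 had medians of 3146 and 2714 CPM.

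Library measures of the high and other cells overlapped. The high cells had 31355500 to 44849000 counts and the others 29454200 to 43651000, with medians of 12826.5 and 12870 detected genes. Mitochondrial genes took a median of 2.24% of the counts in high and 1.87% in other cells, and 3.84% in cell 4-2, the highest share. ERCC transcripts took a median of 3.19% and 2.89%. The part of these small shifts in the results was not tested.

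The 24 high cells were then compared with the other 72 over 14463 genes, those that reached 10 counts in 10% of the cells. A gene was called higher or lower when its mean log2(CPM + 1) differed by 1 or more. By this measure 397 genes were higher (2.74% of those compared) and 413 lower (2.86%), with a median difference of -0.05. Without cell 4-2, 382 were higher, of which 337 were among the 397, and 348 were lower, of which 315 were among the 413. The score came from the same cells and counts, so these shares are the background for the lists that follow and are no evidence on their own.

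Apart from score genes, the largest positive differences among genes with a median of 10 CPM or more in the high cells were those of Slc47a1, Clic6, Aqp4 and Ces1d. Slc47a1, the MATE1 carrier that exports organic cations, had the largest. It ran from 0 to 125 CPM in the high cells with a median of 37.0, and from 0 to 91.0 CPM in the others with a median of 0, a difference of 2.94 in mean log2(CPM + 1). It was at 0 in cell 4-2. Aqp4, a water channel, had a median of 188 CPM in high and 31.5 in other cells and a difference of 2.80. Clic6, a chloride channel family member, had medians of 56.1 and 0.530 CPM. Ces1d, a carboxylesterase that hydrolyses drugs and lipids, had medians of 67.8 and 0.439 CPM and a difference of 2.80.

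Every one of these 4 genes overlapped between the groups, since single other cells reached 91.0 to 531 CPM. Ehf, an Ets transcription factor of secretory epithelia, had 10 or more reads in 16 of 24 high and 14 of 72 other cells, with a difference of 2.61. Lypd2, a Ly6 family gene of airway epithelium, ran from 16.2 to 3604 CPM in the high cells with a median of 221, and had a median of 52.1 CPM in the others. Naprt, which starts the salvage of nicotinic acid to NAD, differed by 2.57, Pcx, the pyruvate carboxylase, by 2.37, Klhdc8a by 2.60, Ggt7 by 2.25, and Cx3cl1, a membrane-bound chemokine, by 2.18. Timp3, a metalloproteinase inhibitor, had medians of 30.9 and 0.379 CPM, and Plppr4 of 12.8 and 0 CPM.

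The genes with the largest negative differences had various roles. Flnc, an actin crosslinker, had a median of 0.323 CPM in high and 33.6 in other cells, a difference of -2.78. Slc16a3, the MCT4 carrier that exports lactate, had medians of 1.41 and 106 CPM and a difference of -2.62. Klk8, a serine protease of skin, differed by -2.30, Serpinb10 by -2.18, Msln, mesothelin, by -2.18, Socs5, a suppressor of cytokine signalling, by -2.13, Plet1 by -2.05 and Kdm2b, a histone demethylase, by -1.97. Sprr2a1 and Sprr2a2, near-identical copies of a cornified envelope gene whose reads can be split between them, differed by -1.98 and -1.96. Cell 4-2 went against this, with 29851 and 30948 CPM, the highest of all cells.

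Genes of oxidation, the first step, were higher in part. Of 37 listed P450 and monooxygenase genes outside the score, 13 passed the count filter, with a median difference of 0.43. Of these, 3 were higher by 1 or more and none lower, beside 2.74% and 2.86% of all genes. These were Cyp1b1, a P450 of aromatic hydrocarbons, with 1.94, Cyp4f13 with 1.54 and Cyp39a1, an oxysterol hydroxylase, with 1.33. Cyp1b1 reached 177 CPM in cell 4-2 and had a median of 0.620 CPM in the high cells. Por had medians of 266 CPM in high and 285 in other cells.

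Of 41 genes of aldehyde, alcohol, carbonyl and ester metabolism that passed, 8 were higher and none lower, with a median of 0.49. Adh7, an alcohol dehydrogenase that also oxidizes retinol, differed by 1.83, with 1.65 to 5083 CPM and a median of 810 in high cells and a median of 148 in the others. Cbr2, a carbonyl reductase of airway cells, ran from 213 to 10881 CPM with a median of 899, against a median of 402 CPM. Dhrs4 differed by 1.58, Nqo1, the quinone reductase, by 1.20, Aldh3a2 by 1.16, Aldh3a1 by 1.12 and Pon3 by 1.07.

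Conjugation followed. Of 11 genes of glucuronidation and sulfation that passed, 5 were higher, none was lower and the median was 0.88. Ugt1a7c differed by 1.63, Ugt1a6b by 1.59 and Ugt1a6a by 1.52, but these share the last exons of the Ugt1a gene, so that they cannot be counted as separate results. Cell 4-2, with the most Ugt2a1, had 0.21 CPM of Ugt1a7c and 0.08 CPM of Ugt1a6a. Sult1e1 and Sult1b1, sulfotransferases, differed by 1.47 and 1.02. Among 24 genes of glutathione conjugation and methylation, 6 were higher, 1 (Gstcd) was lower and the median was 0.25. Mgst1, the microsomal glutathione transferase, differed by 2.04, Gsta3 by 1.75 and Gstm1 by 1.19, the last with medians of 2065 CPM in high and 890 in other cells.

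Of 15 export pumps and organic ion carriers, 3 were higher, none was lower and the median was 0.27. Besides Slc47a1 these were Slc22a5, the carnitine carrier, with 1.57 and Abcc5, an export pump, with 1.06. Over these 5 lists together, 104 genes passed, of which 25 were higher (24.0%, beside 2.74% of all genes) and 1 was lower, with a median of 0.43. Without the 3 Ugt1a genes, which share exons, 22 were higher (21.8% of those left). Without cell 4-2, 21 of the 104 were higher and the median was 0.43. Within the 8 pairs with 1 high cell 15 of these genes were higher and 8 lower in the high cell, beside 8.97% and 8.76% of all genes. None of the 15 xenobiotic receptor genes, such as Ahr, differed by 1 or more, and their median was 0.15. Of 22 genes of the NRF2 antioxidant response, which include the regulator Nfe2l2 and its repressor Keap1, 1 (Nqo1) was higher and the median was 0.21. Of 9 genes of retinoid metabolism, 1 (Adh7) was higher.

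**Figure D4:**
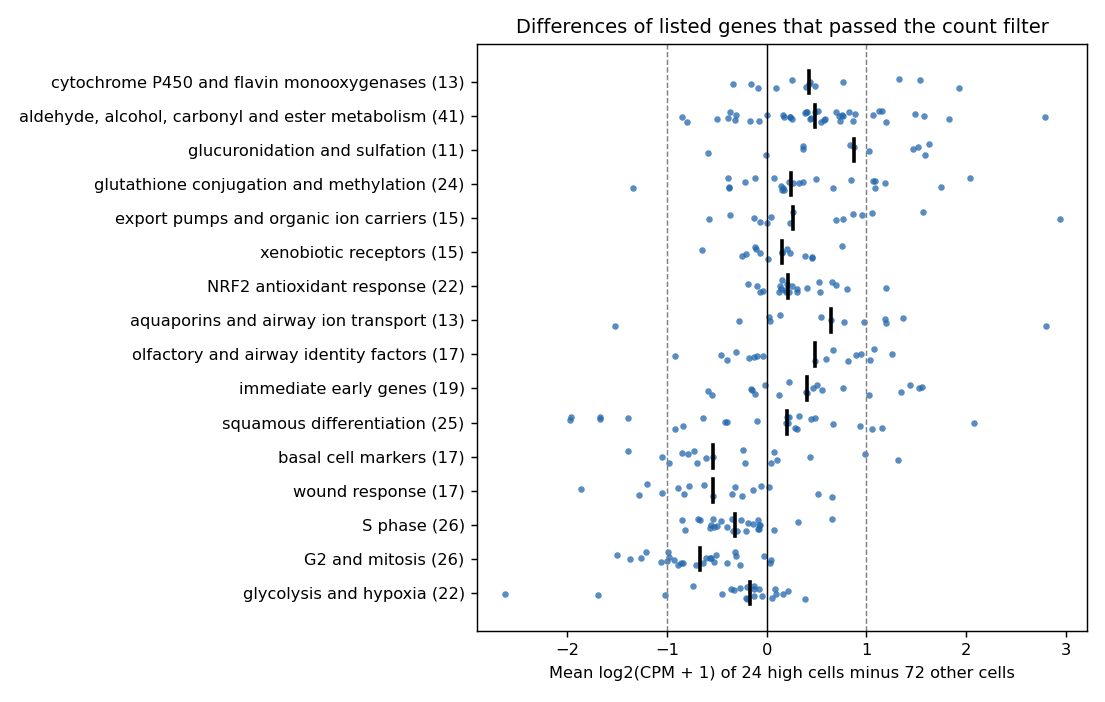
Difference in mean log2(CPM + 1) between the 24 high and 72 other cells for each listed gene that passed the count filter (points; number of genes in brackets), with the list median as a bar and dashed lines at -1 and 1. Of the 16 lists drawn, which leave out the score genes and the markers of other cell types, glucuronidation and sulfation has the highest median, 0.88, and the list of G2 and mitosis the lowest, -0.67.

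Ion and water transport genes lay above the other lists of cell function. Of 13 that passed, 4 were higher, 1 was lower and the median was 0.65. Besides Aqp4, these were Atp1b1, a subunit of the sodium pump, with 1.37, Aqp5 with 1.20 and Slc12a2, the chloride importer of secretory cells, with 1.18. Ano1, a chloride channel, differed by -1.52. Among 17 olfactory and airway identity factors, 3 were higher, among them Hes6 with 1.08 and Six4 with 1.04, and none was lower. Sox2 differed by -0.10.

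Basal and wound genes had medians below 0, which moved toward 0 without cell 4-2. Of 17 basal markers, 1 (Sostdc1) was higher, 2 (Cd34 with -1.39 and Krt14) were lower and the median was -0.54. In all, 11 of the 17 had a difference below 0 and 6 above 0. Without cell 4-2, 2 were higher, 1 was lower and the median was -0.23. Krt14 differed by -1.05, and by -0.77 without that cell, while Krt5 differed by 0.07 and Trp63 by 0.11. Of 17 wound response genes, 4 were lower, among them Ereg, Krt6a and Krt6b, none was higher and the median was -0.54. Without cell 4-2, 3 were lower and the median was -0.24. Krt6a, a keratin of injured epithelium, had medians of 2387 CPM in high and 4617 in other cells. Among 25 genes of squamous differentiation, 3 were higher and 5 lower. Of 19 immediate early genes, 5 were higher, with Nr4a1 at 1.56, Btg2 at 1.53 and Fos at 1.44.

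For 26 genes of G2 and mitosis the median was -0.67, and 6 were lower, among them Cenpe with -1.51 and Ccnb2 with -1.37. Without cell 4-2 the median was -0.51 and 4 were lower. Within the 8 pairs with 1 high cell the sign was the other way, with a median of 0.74, 9 genes higher and 1 lower in the high cell, beside 8.97% and 8.76% of all genes. The 26 S phase genes had a median of -0.32, or -0.13 without cell 4-2, and none past 1 in either direction, while within pairs their median was 0.43, with 8 higher and 1 lower. Of 22 genes of glycolysis and hypoxia, 3 were lower, namely Slc16a3, Pfkfb3 with -1.69 and Car9 with -1.02. Markers of ciliated cells had 1 of 5 higher, Tppp3 with 1.36, while Foxj1 and Dnah5, which define these cells, were each counted in 1 high cell. Of the marker lists of other cell types, Bowman's glands had Aqp5 and airway secretory cells had Lypd2 higher, and neither list had any other gene past 1. The summed level of the 11 Bowman's gland markers ran from 177 to 8490 CPM with a median of 1679 in high cells and from 10.5 to 3528 CPM with a median of 932 in other cells, most of it Aqp5. For the 10 sustentacular markers it ran from 1477 to 7327 CPM in high and from 885 to 5987 CPM in other cells, and for the 12 airway secretory markers from 16.4 to 3771 and from 0.277 to 1008 CPM. Few genes of these lists passed the filter, namely 2 of 11 for Bowman's glands, 1 of 12 for airway secretory cells, 4 of 10 for sustentacular cells, 2 of 13 for globose basal cells and neurons, 1 of 18 for immune, stromal, endothelial and blood cells and 0 of 8 for ionocytes. None of the sustentacular, neuronal and non-epithelial genes that passed differed by 1 or more. The part of these cell types in the result was not tested.

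The score was also ranked against each gene over all 96 cells. Among the highest Spearman values outside the score genes were those of Slc6a6, the taurine carrier, with 0.54, Gstm2 with 0.51, Cbr2 with 0.51, Aqp4 with 0.50, Atp1b1 with 0.50, Card19 with 0.48, Ces1d with 0.48, Ephx1 with 0.46 and Mfap3l with 0.46. Slc6a6 ran from 663 to 2825 CPM in the high cells with a median of 1334, and from 144 to 1352 CPM in the others with a median of 765. Atp1b1 had medians of 351 CPM in high and 169 in other cells. The lowest value was that of Hsp90aa1, a chaperone, with -0.50, whose medians were 1535 and 2226 CPM.

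The 8 pairs with 1 high cell compare sisters of the same mother cell. Their high cells had scores from 1.39 to 2.29 and their sisters from 0 to 1.10 with a median of 0.486, where the 64 cells of pairs with neither high had a median of 0.0829 and reached 1.33. The difference of these medians was 0.40, but it was -0.01 when Cyp2f2 was left out of the score, -0.05 without Ugt2a1 and 0.08 with the low shared counts set to 0, and the ranges of both groups overlapped throughout. Ugt2a1 was higher in the high cell of all 8 pairs, as the rule favours, but in 4 of them the high cell (3-2, 15-1, 21-2 or 40-2) had 0.13 to 1.29 CPM. Cell 43-2 had 71.6 CPM and its sister none, and cell 6-2 had 36.2 CPM and its sister none. Cyp2f2 was split both ways. Cell 3-2 had 118 CPM and its sister 0.19, whereas the sisters of cells 15-1 and 30-2 had 44.3 and 28.6 CPM against 19.6 and 0 in the high cells.

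Within these pairs 1297 genes (8.97%) were higher and 1267 (8.76%) lower by 1 or more on average in the high cell. Of the genes called in the comparison of 24 with 72 cells, 162 of the 397 higher and 173 of the 413 lower were past 1 in the same direction here. The 2 comparisons share the 8 high cells.

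Several of the genes that were higher in the 24 cells were at similar levels in the sisters that missed the group. Lypd2 had a median of 212 CPM in the 8 high cells, 254 in their sisters, 244 in the 16 cells of pairs with both high, and 40.9 in the 64 cells of pairs with neither. Aqp4 had medians of 156, 115, 251 and 26.5 CPM in the same order, Clic6 57.5, 22.3, 56.1 and 0.494, Naprt 41.3, 30.2, 84.0 and 0.424, and Timp3 21.1, 29.2, 36.6 and 0.334. Cx3cl1 had a median of 34.6 CPM in the sisters and 19.1 in the high cells. A different order was seen for Slc47a1, with 6.06 CPM in the 8 high cells, 0 in their sisters, 51.4 in pairs with both high and 0.0489 in pairs with neither, and for Ces1d, with 17.6, 0.280, 110 and 0.461 CPM. Slc16a3 was low only in pairs with both cells high, with a median of 1.34 CPM against 99.2, 90.6 and 112.

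**Figure D5:**
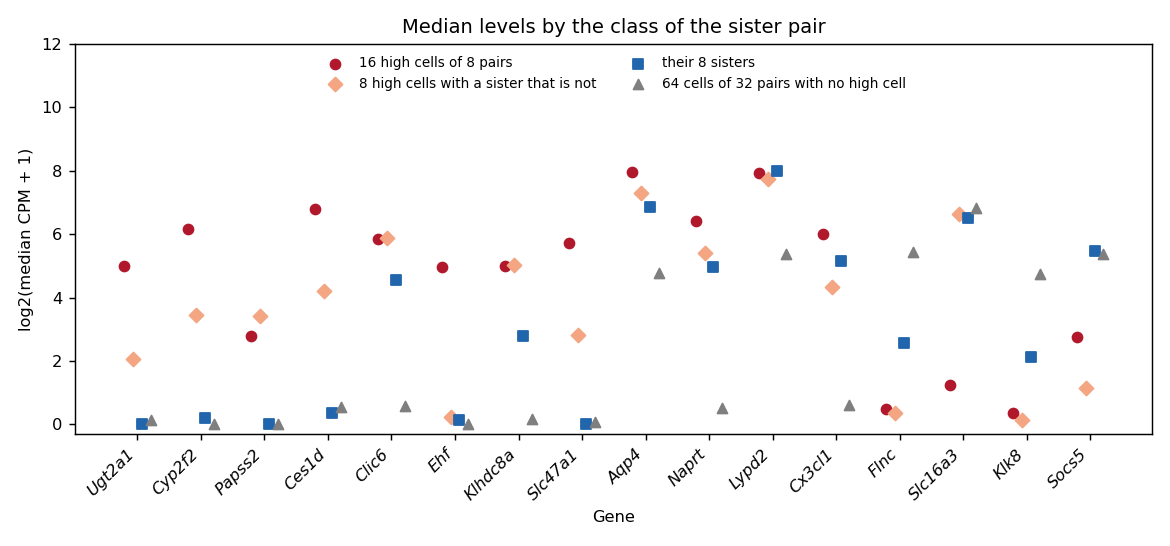
log2(median CPM + 1) of 16 genes in the 16 high cells of pairs with both high, the 8 high cells of pairs with 1 high, their 8 sisters, and the 64 cells of pairs with no high cell. Lypd2, Aqp4, Naprt and Clic6 of the sisters lie nearer to the high cells than to the cells of pairs with no high cell, whereas Ces1d and Slc47a1 do not.

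Sister values of Lypd2 had a Spearman's rho of 0.790 over the 48 pairs and those of Aqp4 0.773, the 2 highest among the 5 score genes and the 13 others with the largest positive differences. Slc47a1 had 0.515, Clic6 0.416, Ces1d 0.463 and Ehf 0.265.

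The next genes are described because their high and non-high sisters differed in the same direction in at least 7 of the 8 pairs. The share of all 14463 genes that do so is not given here, so this agreement is a description of the choice. Mki67, a proliferation marker, was higher in the high cell of 8 of 8 pairs, by 0.21 to 3.94 on the log2 scale. The largest steps were from 3.16 to 62.8 CPM in pair 43 and from 18.2 to 94.7 CPM in pair 15, and the other 6 pairs differed by 0.21 to 0.43. Over all cells it went the other way, with medians of 257 CPM in high and 469 in other cells. Six4, an eye and olfactory placode factor, was higher in 8 of 8 pairs, from 0.09 to 5.29. Ces1d was higher in 7 of 8 pairs, with 147 CPM in cell 3-2 and 0.32 in its sister, and 111.7 CPM in the sister of cell 43-2 against 21.1. Cdkn2b, an inhibitor of the cell cycle, was also higher in 7, and Pfkfb3, Cdk6, Cdc45, Tiparp and Hsp90aa1 were lower in 7.

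The genes with the largest mean differences within pairs were of other kinds. Chd1l, a chromatin remodeller, was 8.63 to 119 CPM in the 8 high cells and 0 to 4.77 in their sisters, without overlap, a mean difference of 4.36. Lyst, a gene of lysosome traffic, was 11.8 to 71.9 CPM against 0 to 1.92, a difference of 2.93 to 6.19 in the 8 pairs. Csrnp1 with 3.38, Mcub with 3.24 and Zc2hc1c with 3.24 followed. Lurap1l with -3.69, Nat9 with -3.34, Cog3 with -3.31, Alkbh3 with -3.30 and Lxn with -3.18 were lowest. Chd1l and Lurap1l differed by 0.14 and -0.07 between the 24 and the 72 cells, and these 2 were not called there. The genes were picked as the extremes of 14463 genes over 8 pairs, and how large such extremes are without any link to the score was not tested.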

How the data were processed

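RNA of 96 single cells was captured on oligo-dT beads and amplified, without molecular identifiers, so PCR copies count as reads and intervals cover counting error only. Each cell was picked by pipette and made into its own library, and no doublet caller was run. The authors trimmed reads with Trimmomatic 0.39, aligned pairs to GRCm38 with STAR 2.7.11a and quantified genes with StringTie 2.2.1. They deposited raw counts per gene and cell, the unit used throughout, and TPM tables, used for an alternative and for gene positions. Counts on genes ran from 29454200 to 44849000 per cell.

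The score, the 24 cells and the differences were computed from the counts with Python 3.11.15 (numpy 2.4.6, pandas 2.3.3, scipy 1.17.1), and figures with matplotlib 3.10.9. CPM used each cell's sum over 55487 genes, without the 92 ERCC rows, and a pseudocount of 1. Alternatives used DESeq2 1.42.0 and edgeR 4.0.16 size factors in R 4.3.3. No test was run, since all cells are 1 sample. Members and gene lists were chosen with earlier results of these data known.

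Genes were named by rule: the 5 score genes; the 15 largest positive and 10 largest negative differences with a median of 10 CPM or more in the higher group; up to 4 genes a list and its defining markers; the 10 highest and 5 lowest Spearman values; Cyp2a4 and Ugt2a2; the 5 largest differences each way within pairs; and those in 1 direction in at least 7 of 8 pairs. Further genes of cell 4-2 (Por, Akr1b3, Sprr2f, Sftpd, Krt17), and list members past 1 beyond these, were named after their values were seen. In simulated counts for 24 against 72 cells over 14463 genes, 100% of 200 genes changed 4-fold and 0% of the others were called. The simulation gave every gene the same relative spread between cells and changed well expressed genes only. Many real genes vary more from cell to cell, so these shares do not carry over to the calls made here. Some genes that the rule selects are not reported here.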

Additional observations from a re-analysis of the deposited data

How the results depend on the processing

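All values rest on 96 libraries of 1 sample without molecular identifiers, so their spread between animals is unknown, and low genes are read from few molecules. Of 3425 values recomputed under alternatives, 3379 moved by less than the spread between cells or stayed within 1.5 times of a count, 44 moved further, and for 2 a difference past 1 changed sign. In all, 93 values had another sign than in the report, mostly differences and list medians near 0, such as Lurap1l and Chd1l. The cause was not tested. The alternatives without cell 4-2, without it and the 18 cells sharing its set or position, and with low shared counts set to 0 were chosen after seeing the data. No paired test was run because all cells are 1 sample. Sisters were compared within pairs as a description.

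Against 397 genes higher and 413 lower in the 24 cells, and 1297 higher and 1267 lower within pairs with 1 high cell, the score without Cyp2f2 gave 211 lower, and 776 and 801 within pairs. A score of mean ranks shared 13 of the 24 cells and gave 182 higher, 783 and 682 within pairs, 5 pairs with both cells high in place of 8, and a Flnc difference of 0.012. Taking 12 cells gave 735 higher and 1167 lower, 1955 and 2494 within pairs, 4 pairs with both high, and -0.13 for Zc2hc1c. Taking 32 cells gave 261 and 197, and 650 and 632 within pairs. A pseudocount of 0.1 gave 910 and 911, and 2041 higher within pairs, and one of 10 gave 51 and 19, and 199 and 155 within pairs. Differences of medians gave 736 and 874, 1 cell per pair 771 and 1140, and centring within sets 241 and 242. The median of the 5 score genes was 1.91, and 4.44 as a log2 ratio of mean CPM. Leaving out 1 set or cell 4-2 at a time gave 382 to 501 higher and 348 to 643 lower genes, the lowest without cell 4-2 and the highest without set 7. The score of the sisters minus that of cells of pairs with neither high, 0.40, was -0.048 without Ugt2a1, -0.30 by mean ranks, 1.32 with 12 cells, -0.39 at a pseudocount of 0.1 and 0.88 without cell 4-2 and the 18 cells.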
